A study of Mus musculus with 4 samples.

Results

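The genes of retinoic acid synthesis, breakdown and reception formed a set of 10, taken by name from the 22095 loci with an FPKM value in RNA-seq of *rd7* and wild-type mouse retinas. They are *Rdh10* and *Dhrs3*, the retinaldehyde dehydrogenases *Aldh1a1*, *Aldh1a2* and *Aldh1a3*, the retinoic acid hydroxylases *Cyp26a1* and *Cyp26b1*, the binding protein gene *Crabp1*, and the receptor genes *Rara* and *Rarb*. There were 2 libraries of each genotype, and each pooled 8 whole retinas of 2 female and 2 male mice at 3 weeks of age. The *rd7* mice are mutant in *Nr2e3*, whose product, a nuclear receptor, keeps rods from expressing cone genes, and the labels give C57BL/6J as the strain of both genotypes. All cells of the *rd7* animals carry the mutation, and their rods are known as hybrids of rods and cones. The study used these retinas to look for an enzyme that oxidizes 11-*cis*-retinol in cones.

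Retinoic acid is made from retinol by 2 oxidations. In the first, which is reversible, RDH10 turns retinol into retinaldehyde and DHRS3, also called retSDR1, reduces retinaldehyde back to retinol. In the second, which is irreversible, the ALDH1A enzymes turn retinaldehyde into retinoic acid, and the CYP26 enzymes then hydroxylate retinoic acid for removal. CRABP1 binds retinoic acid in the cytosol, and the receptors RARα, RARβ and RARγ pair with an RXR on DNA to switch target genes on when the acid is bound. In the developing mouse eye, *Aldh1a1* marks the dorsal and *Aldh1a3* the ventral retina, with CYP26 genes between them. Retinaldehyde is also the chromophore of the visual pigments, so the first step is shared with the visual cycle.

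All values are FPKM, in which the sequenced fragments of a gene are scaled by transcript length and by library size, so levels can be compared between genes. FPKM was tested as log2(FPKM + 0.1) with limma across 12655 genes, those averaging at least 1 FPKM with a successful estimate in every library, 2 *rd7* against 2 wild-type libraries. Genes were called at a Benjamini-Hochberg adjusted p under 0.05, a false discovery rate (FDR) of 5%. A fold change on this scale understates that of low genes. From the lowest FPKM values, each library was estimated to hold between 3.48e+07 and 3.55e+07 reads. *Nr2e3* itself read 2493 and 1589 FPKM in *rd7* against 385 and 394 in wild-type retinas (log2 fold change 2.35, adjusted p = 0.0011 from limma). The *rd7* allele is an insertion that leaves the gene transcribed, so this level does not by itself check the labels. Over all genes tested, log2 fold changes had a median of 0.15, so the values were shifted upwards in *rd7* as a whole, and differences from that median are given where they matter. Of the 10 genes, 6 were tested and the other 4 had a mean FPKM under 1.

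Of the 6 genes tested, *Rdh10* rose, *Dhrs3* and *Rara* fell, and *Aldh1a1*, *Crabp1* and *Rarb* were not called. Among all genes tested, 37.6% were called higher and 8.8% lower in *rd7*, so 1 rise in 6 is under the background share and 2 falls in 6 are above it. Both *rd7* values lay above both wild-type values for 2 of the 6 and below them for 3, compared with 57.1% and 19.5% of all genes tested. After median-ratio scaling, which removes the overall shift, 2492 genes were higher and 2479 lower in place of 4755 and 1114, and each of the 6 kept its call. The median log2 fold change of the 6 was 0.02. The called genes were thus those of the step between retinol and retinaldehyde, and a receptor gene. The other values lay close to those of wild-type retinas or differed between the 2 pools of *rd7* retinas.

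**Figure D1:**
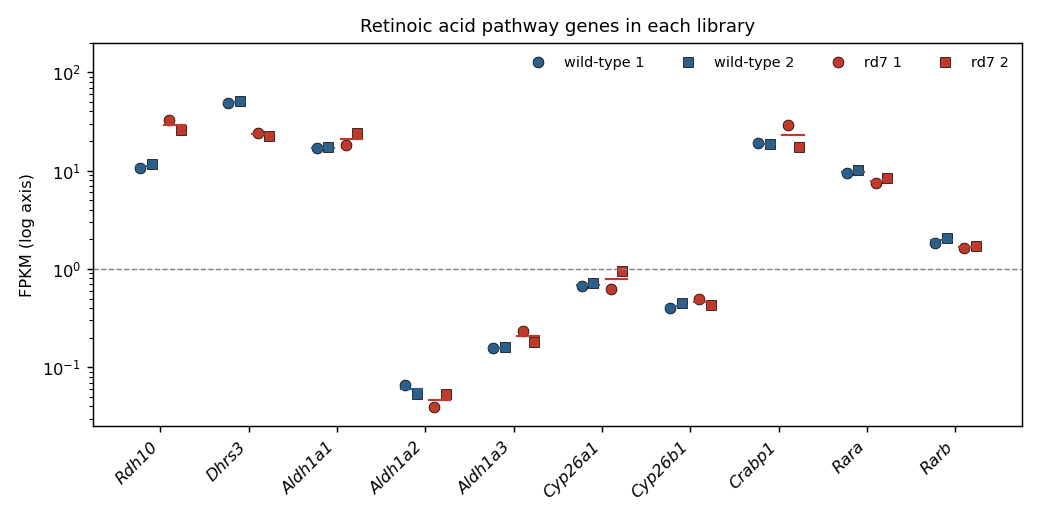
FPKM of the 10 genes in each of the 4 libraries on a log axis, with wild-type in blue and *rd7* in red, replicate 1 as a circle and replicate 2 as a square; short lines are the means of 2 libraries and the dashed line is the mean FPKM of 1 needed for a test. *Rdh10* and *Dhrs3* change places between the genotypes, and *Aldh1a2* is the lowest of the 10.

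*Rdh10* is a gene of chromosome 1, at 16095963 to 16122631 of mm9, plus strand. It measured 32.5 and 25.9 FPKM in *rd7* against 10.7 and 11.6 FPKM in wild-type retinas. Both *rd7* pools stood well above both wild-type pools, although they differed from each other more than those of wild-type. The log2 fold change was 1.37 (standard error 0.11, 95% interval 1.09 to 1.65, adjusted p = 0.00105 from limma), or 1.23 above the median of all genes. Within a library, *Rdh10* stood at the 73.1 and 74.3 percentile of all loci in wild-type and at the 89.6 and 86.8 percentile in *rd7* retinas.

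*Dhrs3*, whose enzyme runs the opposite reaction, lies on chromosome 4 of mm9 from 144482730 to 144517548 on the plus strand. It measured 24.0 and 22.6 FPKM in *rd7* against 48.9 and 50.7 FPKM in wild-type retinas. The values of each genotype were close together and the genotypes were far apart. The log2 fold change was -1.09 (standard error 0.06, 95% interval -1.23 to -0.96, adjusted p = 0.000294 from limma), or -1.24 relative to the median of all genes. Its percentile within the library was 94.3 and 94.5 in wild-type and 85.6 and 84.7 in *rd7* retinas. In background terms, *Dhrs3* is known as a gene that retinoic acid induces in many tissues, and its protein has been placed in cone outer segments.

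The ratio of *Rdh10* to *Dhrs3* is independent of any factor that scales a whole library, since both genes come from the same library. It was 0.219 and 0.228 in the wild-type libraries and 1.35 and 1.15 in the *rd7* libraries. Thus *Dhrs3* exceeded *Rdh10* in both wild-type pools and *Rdh10* exceeded *Dhrs3* in both *rd7* pools. The difference between genotypes was 2.48 on the log2 scale, or 5.57-fold, beside a spread between replicates of 0.12 (SD of the log2 ratio pooled over the 2 genotypes). With each library left out in turn it ranged from 2.36 to 2.60. A correction that differs between genes can change it. Corrected for GC content and length, the log2 fold changes were 1.09 for *Rdh10* and -1.24 for *Dhrs3*. The pair was chosen with its pattern known, so the ratio is given without a test.

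**Figure D2:**
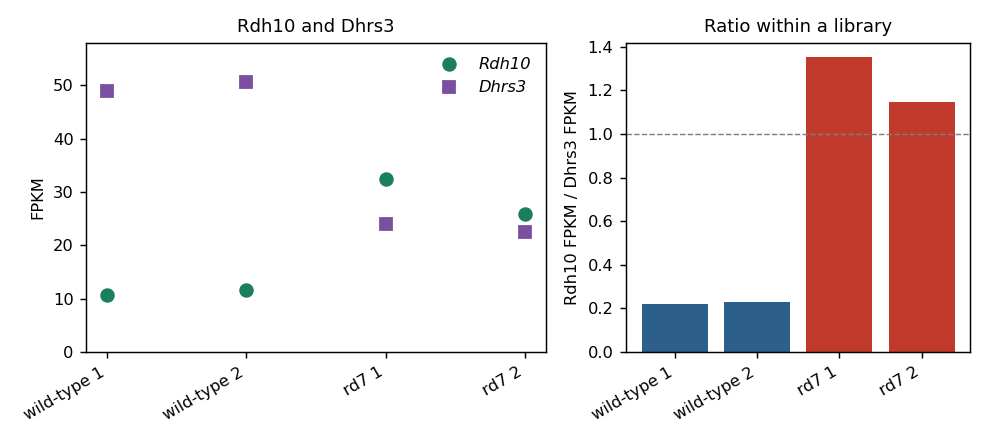
Left, FPKM of *Rdh10* (circles) and *Dhrs3* (squares) in each library. Right, the ratio of the 2 FPKM values within each library, with wild-type in blue, *rd7* in red and a dashed line at 1; the wild-type bars stand at 0.219 and 0.228 and the *rd7* bars at 1.35 and 1.15.

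Whole retinas were sequenced, so fewer cells of a type and less RNA per cell cannot be told apart, here or for the genes that follow. RDH10 is known in Müller cells and in the retinal pigment epithelium (RPE), and some of the markers of both were higher in *rd7*. As background for the marker counts, 37.6% of all genes tested were called higher and 8.8% lower, with a median log2 fold change of 0.15. Of 12 RPE markers, 8 were tested, of which 6 were higher in *rd7*, 0 lower and 2 not called (median log2 fold change 1.02). Their summed FPKM was between 80.3 and 90.9 in *rd7* and between 38.6 and 54.2 in wild-type retinas, and *Rpe65*, the isomerase that defines this tissue, read 2.28 and 2.44 against 1.40 and 0.784. *Tyr* and *Rdh5* were the tested RPE markers not called, and *Best1*, under the filter, was lower in *rd7*, at 0.110 and 0.0707 against 0.178 and 0.236. No RPE marker was at 0 in all 4 libraries. Between the *rd7* pools, the RPE sum was higher in replicate 1 (90.9) than in replicate 2 (80.3), as *Rdh10* was. The same held for *Ttr*, *Rrh*, *Tyr*, *Tyrp1*, *Dct*, *Lrat*, *Best1*, *Mlana* and *Slc45a2*, while *Rpe65*, *Rgr* and *Rdh5* were higher in *rd7* replicate 2. In wild-type retinas the RPE sum was higher in replicate 1 and *Rdh10* in replicate 2. Of 10 Müller cell markers, 6 were higher and 0 lower (median 0.44), with a summed FPKM between 2139 and 2197 in *rd7* and between 1938 and 2005 in wild-type retinas. Most of this sum was *Glul* (1011 and 965 in *rd7*, 904 and 931 in wild-type) and *Apoe* (616 and 581, 599 and 630). The 4 not called were *Glul* and *Rlbp1*, which define Müller cells, with log2 fold changes of 0.11 and 0.15, *Sox9* (0.05) and *Apoe* (-0.04). The part of these cells in the *Rdh10* difference was not tested.

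Photoreceptor markers were read beside *Dhrs3*, and cone and rod markers differed in direction. The background was again 37.6% of all genes tested called higher and 8.8% lower. Of 10 cone markers, 8 were higher and 0 lower (median 1.37), *Opn1mw* and *Arr3* were not called (-0.16 and 0.08), and their summed FPKM was between 4517 and 4809 in *rd7* and between 1453 and 1497 in wild-type retinas. Of 8 rod markers, 7 were tested, of which 4 were lower and 0 higher (median -0.42), while *Pde6a*, *Pde6b* and *Sag* were not called (0.02, 0.03 and -0.02). These 7 summed to between 7862 and 8588 in *rd7* and between 10976 and 11186 in wild-type retinas. The rod opsin gene had no successful estimate in wild-type retinas and was left out of these sums. *Dhrs3* fell while the cone sum rose. *Dhrs3* stood at 0.483 and 0.453 of the wild-type mean and the rod sum at 0.710 and 0.775. Single rod genes ranged from *Reep6*, which fell more than *Dhrs3* (log2 fold change -1.49), to those not called. Whether the change of photoreceptors had a part in the fall of *Dhrs3* was not tested.

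**Figure D3:**
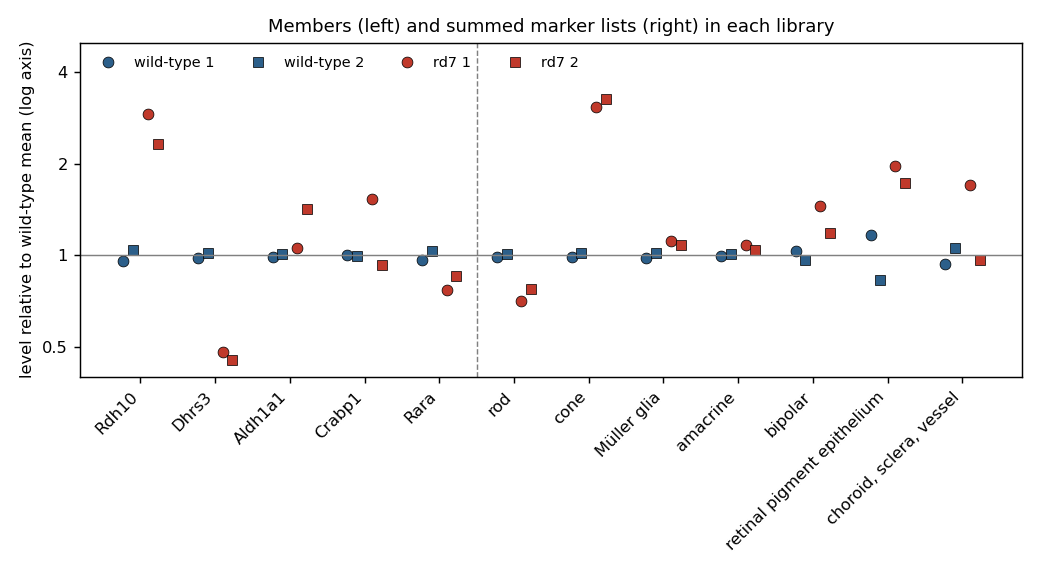
Level of 5 members (left of the dashed line) and summed FPKM of marker lists of retinal and neighbouring cell types (right) in each library, relative to the mean of the 2 wild-type libraries, on a log axis. *Dhrs3* lies below 0.5 in both *rd7* libraries while the cone sum lies above 3, and *Crabp1* and the choroid, sclera and vessel sum are both raised in *rd7* replicate 1 alone.

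The next enzymes, the retinaldehyde dehydrogenases, were represented almost wholly by *Aldh1a1*. It lies on chromosome 19 of mm9 from 20676472 to 20717952 on the plus strand. It measured 18.1 and 24.3 FPKM in *rd7* against 17.0 and 17.3 FPKM in wild-type retinas. Both *rd7* values were above wild-type, but *rd7* replicate 1 only narrowly, and the *rd7* pools differed from each other by 0.42 on the log2 scale against a median of 0.10 over all genes. The log2 fold change was 0.29 (standard error 0.13, 95% interval -0.03 to 0.62, adjusted p = 0.121 from limma) and the gene was not called. The difference was 0.50 without *rd7* replicate 1 and 0.08 without *rd7* replicate 2, so its size depended on which *rd7* pool was used. With replicate 1 left out the gene was called, but such a fit assumes that the lone *rd7* library varies like the wild-type pair. Its spread came from that pair, which was nearly equal here, and from the variance trend over all genes. That call thus does not carry the spread between *rd7* pools. Relative to the median of all genes the difference was 0.15, and corrected for GC content and length it was 0.06. Of the stretches of 50 bases in the *Aldh1a1* transcript, the read length of this study, 7.54% also occur in the transcript of its paralog *Aldh1a7*, and reads from these could be split between the 2 genes.

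*Aldh1a1* made up between 98.5% and 99.0% of the summed FPKM of the 3 *Aldh1a* members in the 4 libraries. *Aldh1a3* (chromosome 7, 73535779 to 73572363, minus strand) read 0.235 and 0.182 in *rd7* against 0.157 and 0.160 in wild-type retinas. These values rest on about 38 and 29 reads in *rd7* and 26 and 26 in wild-type retinas. The ratio of *rd7* to wild-type reads was 1.29 with a 95% interval of 0.884 to 1.89 (exact binomial, counting error only), so a difference was not detectable at this depth although the values did not overlap. *Aldh1a2* (chromosome 9, 71063596 to 71144050, plus strand) read 0.0391 and 0.0536 in *rd7* and 0.0666 and 0.0540 in wild-type retinas. These are about 3 to 5 reads per library, next to the floor of 3 reads, and the ratio of reads was 0.778 with a 95% interval of 0.246 to 2.35. Among the 3 dehydrogenases, the gene known for the dorsal retina thus held nearly all of the FPKM in each library, and *Aldh1a3*, known for the ventral retina, held between 0.742% and 1.28% of it.

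Genes of the dorsal and ventral retina were read beside the dehydrogenases. Of 6 dorsal genes, 4 were tested, of which *Efnb1* was higher (log2 fold change 0.28, adjusted p = 0.0467 from limma) and the other 3 were not called. The *Efnb1* difference was 0.13 relative to the median of all genes. *Tbx5*, the dorsal transcription factor gene, was under the filter at 0.671 and 0.925 in *rd7* and 0.829 and 0.748 in wild-type retinas. Of 3 ventral genes, *Vax2*, a ventral transcription factor gene, fell from 16.3 and 17.4 to 11.3 and 11.2 FPKM (log2 fold change -0.58, adjusted p = 0.00166 from limma). *Ephb2* rose by 0.48 on the log2 scale and *Ephb3* was not called. Relative to the median of all genes these differences were -0.73 and 0.33, so the called ventral genes moved in opposite directions.

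The CYP26 enzymes, which remove retinoic acid, were at low levels in both genotypes. *Cyp26a1* (chromosome 19, 37772298 to 37776026, plus strand) read 0.620 and 0.947 in *rd7* against 0.663 and 0.712 in wild-type retinas. *Cyp26b1* (chromosome 6, 84521408 to 84543902, minus strand) read 0.497 and 0.426 in *rd7* and 0.397 and 0.452 in wild-type retinas. In both genes the genotypes overlapped. Behind these values stood about 39 to 58 reads per library for *Cyp26a1* and 65 to 81 for *Cyp26b1*. The ratio of *rd7* to wild-type reads was 1.11 with a 95% interval of 0.826 to 1.51 for *Cyp26a1* and 1.07 with an interval of 0.845 to 1.36 for *Cyp26b1*, and no difference was detectable at this depth. These intervals do not cover the spread between pools of animals, and PCR copies of a fragment would make them too narrow. The third gene of the family, *Cyp26c1*, singled out after its values were seen, lies beside *Cyp26a1* and read 0.321 and 0.340 in *rd7* and 0.0957 and 0.133 in wild-type retinas. About 41 reads in *rd7* and 14 in wild-type retinas gave a ratio of 2.93 with an interval of 1.56 to 5.82. It was under the filter, and in the fit without a filter its log2 fold change was 1.01 and called (adjusted p = 0.0461 from limma).

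*Cyp26a1* and *Rarb* are known to be switched on by retinoic acid itself, through a pair of receptor hexamers in their promoters. Promoters were therefore searched for the letters of these hexamers, and binding of receptors was not measured. Promoters of 8 of the 10 genes, 14 in all, were taken from the RefSeq promoter table used here (GRCm38.p6), and those of *Rdh10* and *Aldh1a3* were not analysed here. In the 250 bases before each start, the hexamer was searched as AGGTCA or GGGTCA or AGTTCA or GGTTCA on both strands, as 2 copies in the same direction with 1, 2 or 5 bases between them, and overlapping matches were kept. A repeat with 5 bases between occurred in 0.0883% of the 32841 promoters searched, one with 1 base in 0.164% and one with 2 bases in 0.174%. Of the 14 promoters, 2 held a repeat, each with 5 bases between its hexamers, and they were those of *Cyp26a1* and *Rarb*. The sequences are shown 5′ to 3′ on the strand of the gene, with the hexamers of the repeat in capitals and a further single hexamer of *Rarb* left in lower case, for *Cyp26a1* (GRCm38.p6 chr19:37697558-37697807, plus strand) and *Rarb* (GRCm38.p6 chr14:16575477-16575726, minus strand), and for *Dhrs3* (GRCm38.p6 chr4:144892577-144892826, plus strand, the first of its 3 listed starts) as the member that fell most.
Cyp26a1: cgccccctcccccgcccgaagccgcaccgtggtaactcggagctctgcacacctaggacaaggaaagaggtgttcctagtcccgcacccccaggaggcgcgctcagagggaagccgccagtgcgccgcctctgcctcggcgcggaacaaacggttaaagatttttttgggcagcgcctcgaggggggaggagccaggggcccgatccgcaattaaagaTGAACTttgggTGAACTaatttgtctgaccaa
Rarb: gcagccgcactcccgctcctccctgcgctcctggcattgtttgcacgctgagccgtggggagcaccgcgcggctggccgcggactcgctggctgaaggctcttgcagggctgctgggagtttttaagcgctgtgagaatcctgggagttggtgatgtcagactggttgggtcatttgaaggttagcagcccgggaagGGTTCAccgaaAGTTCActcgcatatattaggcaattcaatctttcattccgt
Dhrs3: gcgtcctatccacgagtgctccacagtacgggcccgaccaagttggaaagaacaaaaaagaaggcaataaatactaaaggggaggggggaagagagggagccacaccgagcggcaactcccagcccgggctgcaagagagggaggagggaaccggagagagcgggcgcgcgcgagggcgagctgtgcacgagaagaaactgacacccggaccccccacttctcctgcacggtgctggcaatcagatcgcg
In *Cyp26a1* the repeat reads along the other strand, from 32 to 16 bases before the start, and in *Rarb* along the strand of the gene, from 53 to 37 bases before it. No such repeat lies in the 3 windows of *Dhrs3*, which says only that these letters are absent from them. The genes with the repeat, *Cyp26a1* and *Rarb*, were not called or not tested between genotypes.

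*Crabp1*, the cytosolic binding protein gene, lies on chromosome 9 of mm9 from 54612615 to 54620916 on the plus strand, 5.18 Mb from *Nr2e3*. It measured 28.9 and 17.6 FPKM in *rd7* against 18.9 and 18.8 FPKM in wild-type retinas. The wild-type pools were nearly equal, while the *rd7* pools lay on either side of them and differed by 0.71 on the log2 scale, at the 98.4 percentile of that difference over all genes tested. The log2 fold change was 0.26 (standard error 0.22, 95% interval -0.28 to 0.79, adjusted p = 0.365 from limma). It was 0.10 after median-ratio scaling and 0.40 when corrected for GC content and length, not called in either. It was 0.61 without *rd7* replicate 2 and -0.10 without *rd7* replicate 1. The former was called, with a spread that again came from the wild-type pair and the variance trend over all genes. It did not come from the *rd7* pools. The sign of the *Crabp1* difference thus depended on which *rd7* pool was used. In *rd7* replicate 1 the summed FPKM of markers of choroid, sclera and vessel wall was also raised, at 29.1 against 16.6 in *rd7* replicate 2 and between 16.1 and 18.2 in wild-type retinas. Most of that gap was *Cldn5*, an endothelial gene, at 16.2 and 7.65. *Pecam1* (4.16 and 2.57), *Acta2* (3.02 and 1.65) and *Col1a2* (1.63 and 1.04) were also higher in *rd7* replicate 1, as was *Col3a1*. *Pdgfrb* (2.96 and 2.85) and *Col1a1* (0.165 and 0.145) differed less. *Dcn* (0.0709 and 0.138) and *Lum* (0.0123 and 0.0129) were lower in *rd7* replicate 1. The sum of bipolar cell markers was 890 in *rd7* replicate 1 and 724 in *rd7* replicate 2, and that of amacrine cell markers was 593 and 572. The part of these cells in the *Crabp1* value was not tested.

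Of the receptor genes, *Rara* fell and *Rarb* was not called. *Rara* (chromosome 11, 98799010 to 98836256, plus strand) read 7.50 and 8.35 in *rd7* against 9.39 and 10.1 in wild-type retinas. The groups did not overlap, but the gap between them was little wider than the differences within each genotype. The log2 fold change was -0.30 (standard error 0.08, 95% interval -0.49 to -0.10, adjusted p = 0.0272 from limma), or -0.44 relative to the median of all genes. It was not called with either wild-type library left out (adjusted p = 0.11 without replicate 1 and 0.192 without replicate 2 from limma). *Rarb* (chromosome 14, 17263354 to 17407724, minus strand) read 1.62 and 1.73 in *rd7* and 1.83 and 2.07 in wild-type retinas. The groups did not overlap, but the log2 fold change of -0.21 (standard error 0.13, 95% interval -0.52 to 0.11, adjusted p = 0.229 from limma) was not called. Relative to the median of all genes it was -0.35, and it was -0.44 when corrected for GC content and length and -0.40 after quantile normalization, not called in either (adjusted p = 0.0501 and 0.0546 from limma).

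**Figure D4:**
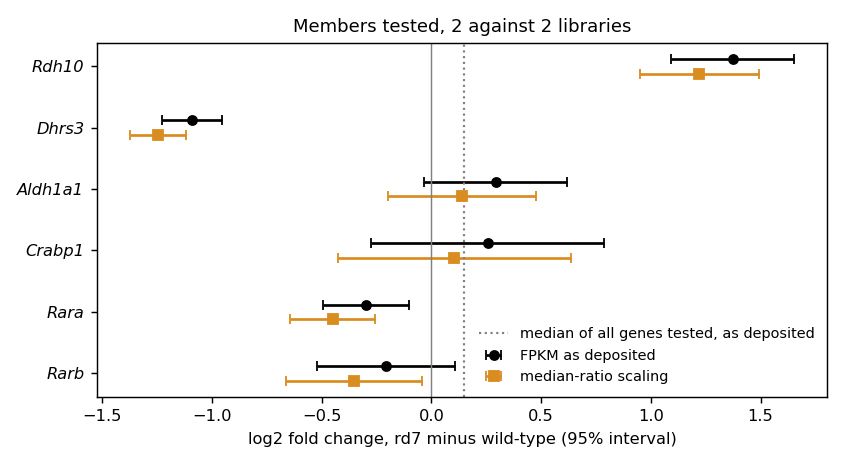
Log2 fold change of the 6 genes tested, with 95% intervals from limma, for FPKM as deposited (black circles) and after median-ratio scaling of the libraries (orange squares); the dotted line is the median of all genes at 0.15. Scaling moves all 6 to the left by a similar amount, *Rdh10* and *Dhrs3* stay far from 0 in opposite directions, and the intervals of *Aldh1a1* and *Crabp1* span 0 in both.

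Together with *Rarg*, which is no member, the RAR genes summed to 10.6 and 11.6 FPKM in *rd7* against 13.3 and 14.1 in wild-type retinas. *Rara* held between 70.5% and 72.2% of that sum in the 4 libraries, so the proportions of the 3 genes were alike in both genotypes. *Rarg* read 1.50 and 1.49 in *rd7* and 2.11 and 1.88 in wild-type retinas and was just past the threshold (log2 fold change -0.39, adjusted p = 0.0498 from limma). This call was lost without a filter, with a replicate block, with *rd7* replicate 2 or either wild-type library left out and, with a log2 fold change of -0.40 (adjusted p = 0.065 from limma), after the correction for GC and length. Of the RXR partners, *Rxra* fell slightly, with a log2 fold change of -0.18 (adjusted p = 0.0442 from limma) that was not called without a filter, without a variance trend, with a replicate block or with *rd7* replicate 1 or either wild-type library left out. *Rxrb* was not called (0.05), and *Rxrg*, known in cones, rose. *Rxrg* read 7.04 and 6.87 in *rd7* and 4.46 and 3.76 in wild-type retinas, which gave a log2 fold change of 0.75 (adjusted p = 0.00312 from limma, and 0.059 without a filter). Its share of the summed RXR FPKM was 19.6% and 18.7% in *rd7* and 12.8% and 11.2% in wild-type retinas.

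For the rest of the pathway, 52 further genes were read in 5 lists, and 31 of them were tested. Of these 31, 13 were higher (41.9%), 4 lower (12.9%) and 14 not called, close to the background shares given above, with a median log2 fold change of 0.17 beside 0.15 for all genes. The split depended on scaling, with 7 higher and 5 lower after median-ratio scaling, 5 and 5 after quantile normalization and 4 and 6 when corrected for GC content and length. Without wild-type replicate 1 it was 3 and 0, and without wild-type replicate 2 it was 4 and 0. The calls of *Rxrg*, *Tbl1x* and *Nrip1* held in both.

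Of 6 genes of retinol uptake, binding and storage, 2 were tested and both were called. *Stra6*, the receptor for circulating retinol binding protein, had a log2 fold change of 0.63 (adjusted p = 0.0162 from limma), and *Dgat1*, an acyltransferase that can esterify retinol, had one of -0.44 (adjusted p = 0.00513 from limma). *Stra6* was not called after quantile normalization, and without a filter neither gene was. *Lrat*, the main retinol esterifying enzyme of the RPE and also on the RPE list, was under the filter, at 1.12 and 0.881 FPKM in *rd7* and 0.324 and 0.235 in wild-type retinas.

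Of 13 other oxidoreductases of the pathway, 5 were tested, of which 3 were higher and 0 lower. The median log2 fold change of the 5 was 0.19, beside 0.15 for all genes tested, 37.6% of which were called higher. *Adh5*, the ubiquitous alcohol dehydrogenase, read 35.9 and 36.5 in *rd7* and 32.0 and 31.6 in wild-type retinas. Its log2 fold change of 0.19 was near the median of all genes and was 0.03 after median-ratio scaling, where it was not called. *Aldh1a7* (0.39) and *Cyp1b1* (0.48), a cytochrome that can oxidize retinol, also lost their calls under that scaling. With the GC and length correction *Aldh1a7* was at 0.16 and *Cyp1b1* at 0.19. Neither was called with that correction or without a filter. *Aldh1a7* kept its call in 1 of 9 refits, and its log2 fold change was 0.24 without *rd7* replicate 1. The alcohol dehydrogenase genes *Adh1*, *Adh4* and *Adh7* were under the filter at no more than 0.111 FPKM in each library.

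Of the 7 other carriers and receptors, 2 were higher and 3 lower, with 37.6% and 8.8% of all genes tested as background. *Crabp2*, which carries retinoic acid to its receptors, fell from 1.76 and 1.71 to 1.17 and 1.13 FPKM (log2 fold change -0.55, adjusted p = 0.0208 from limma), and the call held under median-ratio scaling, quantile normalization and the GC and length correction. It was lost without a filter (adjusted p = 0.0606 from limma) and with either wild-type library left out. *Fabp5*, a fatty acid binding protein that can also carry retinoic acid, had a log2 fold change of 0.45 (adjusted p = 0.0282 from limma) and kept its call in 4 of 10 refits. It was 0.22 with the GC and length correction and 0.27 without *rd7* replicate 1. The remaining calls of this list were those of *Rarg*, *Rxra* and *Rxrg* given above.

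Of 12 cofactor genes of the receptors, 11 were tested, of which 4 were higher and 0 lower. The median log2 fold change of the 11 was 0.14, beside 0.15 for all genes tested, 37.6% of which were called higher. *Tbl1x* and *Tbl1xr1*, parts of the corepressor complex, had log2 fold changes of 0.59 and 0.44 (adjusted p = 0.00166 and 0.00365 from limma). *Nrip1*, a corepressor gene induced by retinoic acid, had a log2 fold change of 0.57 (adjusted p = 0.00177 from limma) and *Kat2b*, a coactivator acetyltransferase, one of 0.32. *Tbl1x* and *Nrip1* kept their calls under each scaling and the GC and length correction, but that correction lowered their log2 fold changes to 0.26 and 0.21, while *Tbl1xr1* and *Kat2b* lost theirs with that correction. The corepressor gene *Ncor1* was not called (0.14), and without *rd7* replicate 1 its log2 fold change was 0.15. It was called higher without a filter (0.14, adjusted p = 0.0367 from limma) and lower with the GC and length correction (-0.18, adjusted p = 0.0342 from limma). *Ncoa2* (-0.19, adjusted p = 0.033 from limma) and *Ncoa3* (-0.22, adjusted p = 0.0461 from limma) were also called lower with that correction.

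Of 14 genes known to respond to retinoic acid, 6 were tested, of which 3 were higher and 0 lower. The median log2 fold change of the 6 was 0.23, beside 0.15 for all genes tested, 37.6% of which were called higher. *Meis1* and *Meis2*, homeobox genes of the retina, had log2 fold changes of 0.21 and 0.25, and after median-ratio scaling of 0.06 and 0.10, where neither was called. Corrected for GC content and length they were -0.13 and -0.09. *Ret*, a receptor tyrosine kinase gene, had a log2 fold change of 0.37 (adjusted p = 0.00924 from limma), and was not called after quantile normalization, without a filter or when corrected for GC content and length. *Tgm2*, the transglutaminase gene, read 1.41 and 2.56 in *rd7* and 1.25 and 1.52 in wild-type retinas, and like *Aldh1a1* it was higher in *rd7* replicate 2 than in *rd7* replicate 1. Of the untested genes, 3 are listed at 0 in all 4 libraries, namely *Hoxa4*, *Hoxb5* and *Cdx1*.

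**Figure D5:**
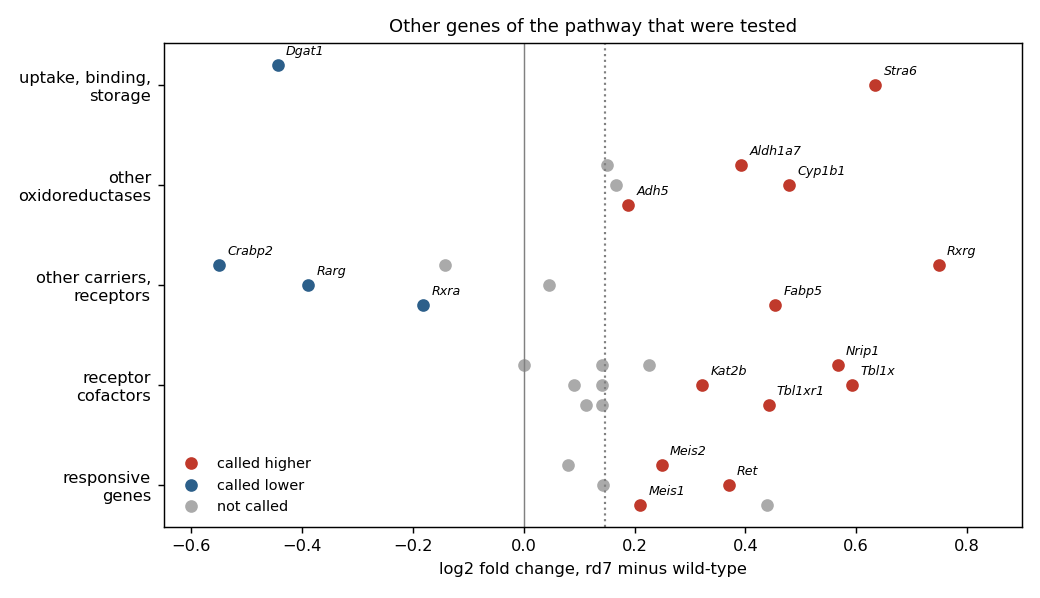
Log2 fold change, *rd7* minus wild-type, of the 31 further pathway genes that were tested, in 5 lists, with genes called higher in red, called lower in blue and not called in grey at an FDR of 5%; the dotted line is the median of all genes at 0.15. The 4 genes called lower are *Dgat1*, *Crabp2*, *Rarg* and *Rxra*.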

How the data were processed

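RNA-seq of 4 retina libraries, 2 *rd7* and 2 wild-type, was analysed. The authors sequenced single reads of 50 bases on 1 lane. TopHat 1.4.1 and the mm9 genome were used for alignment, and the authors deposited FPKM per gene and library from Cufflinks 1.3.0, with a status for each value; the gene annotation they used is not given in the sources used here. A deposited table of the authors' own Cuffdiff comparison (pooled FPKM, fold changes, p-values and q-values) was not used. FPKM are not counts, so no count model was fitted.

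Genes averaging at least 1 FPKM, with a status of OK in the 4 libraries, were tested on log2(FPKM + 0.1) by a two-sided limma test (limma 3.58.1, R 4.3.3, moderated variances following a trend). P-values were adjusted by Benjamini-Hochberg over all genes tested, at an FDR of 5%. This step was tested on simulated data. Whether the FDR holds with the overall shift and the large share of called genes seen here was not tested. The 262 loci with another status were left out. An exact permutation test of 2 against 2 libraries cannot give a p under 0.333 and was not used. The libraries are separate pools of animals. With 2 pools per genotype, p-values rest on the spread of a gene between pools and on the variance trend over all genes tested. The members and lists were chosen with earlier results of these data known, and list counts are descriptions. Named are all members, every called gene of the pathway lists and some defining genes of the marker lists. Other pathway and marker genes were named after their values were seen. Some genes of the pathway lists are not reported here and are not counted in them.

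Exonic length and GC content came from GENCODE vM1 on NCBIM37, the same build as mm9 (96.9% of genes tested matched). Reads behind a value were estimated from FPKM, exonic length and the worth of 1 read, taken as the median of FPKM times kb between 0.02 and 0.036 in genes with 1 annotated transcript of over 800 bases. This window was chosen from the data and exonic length exceeds the effective length, so read numbers are approximate. Read ratios have exact 95% intervals (Clopper-Pearson, scipy 1.17.1). Promoters were taken from RefSeq tables of GRCm38.p6, and no coordinate was converted between builds.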

Additional observations from a re-analysis of the deposited data

How the results depend on the processing

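*Rdh10* was called higher and *Dhrs3* lower under all 10 refits on the 4 libraries and with each library left out. Their log2 fold changes ranged over these from 1.09 to 1.54 and from -1.25 to -1.05, and their adjusted p from limma from 1.86e-06 to 0.0442 and from 3.41e-06 to 0.0216. The call of *Rara* was lost without a filter on low FPKM and at an FDR of 1%, which each left 1 of the 10 genes lower, and the lowest and highest adjusted p from limma over all refits were 0.00346 and 0.192. The cause was not tested. A fit with a library left out assumes that the lone library varies like the other genotype's pair. In such fits 1 to 2 of the 10 genes were higher and 1 to 2 lower, and *Crabp1* had log2 fold changes between -0.10 and 0.61.

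Over all genes, 2249 were higher and 455 lower without a filter, 2492 and 2479 after median-ratio scaling, 2350 and 2404 after quantile normalization, 2582 and 446 at an FDR of 1%, and 1523 and 1858 with the GC and length correction (natural splines with 5 degrees of freedom each). With a library left out, 1293 to 5484 were higher and 224 to 1601 lower. Of the further pathway genes, 8 were higher and 2 lower without a filter, 7 and 5 after median-ratio scaling, 5 and 5 after quantile normalization, 6 and 1 at an FDR of 1%, and 4 and 6 with the GC and length correction. At a mean FPKM of at least 5, where fewer genes are tested, 2 were lower. With a library left out, 3 to 17 were higher and 0 to 3 lower. Median-ratio scaling moved the overall median difference on the log2 scale from 0.15 to -0.0049.

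No pairing by replicate number was seen. Across genes, how far the *rd7* and the wild-type library numbered 1 lay from their own means was correlated at r = -0.03. The fit with a replicate block called 4508 genes higher and 1091 lower. In it, 1 of the 10 genes was higher and 2 lower, and 2 further pathway genes were lower. The reads of *Aldh1a2* were too few to show even a 2-fold difference.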
